A study of Homo sapiens with 6 samples.

Results

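The replication-dependent histone genes are the clustered genes that make the bulk of the core and linker histones. They were taken as every row of the gene table whose symbol is one of H1-1 to H1-6 or begins with H2AC, H2BC, H3C or H4C followed by a number, which gave 53 genes of 35009 rows. These comprised 4 linker histone H1 genes, 15 H2A genes, 15 H2B genes, 10 H3 genes and 9 H4 genes. Of the 53, 42 lie on chromosome 6 and 11 on chromosome 1. No symbol occurred on more than one row.

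The study sequenced RNA of macrophages made from THP-1, a leukaemia cell line of human monocytes. All libraries came from cells exposed to ox-LDL, an oxidised lipoprotein whose uptake turns macrophages of the artery wall into foam cells. The 3 siMCT4 libraries came from cells with MCT4 deficiency and the 3 control libraries from cells labelled as controls. MCT4, the product of SLC16A3, carries lactate and protons out of the cell. The series' title relates MCT4 to a lactylation mark on histone H3; that mark sits on the protein, and the values here are of messenger RNA alone. Whether the controls received a non-targeting RNA is not given in the sources used here. All libraries come from a single cell line, and nothing in the labels says that the libraries of a group were separate cultures, so p-values measure the spread between these samples, which may be technical.

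Histones H2A, H2B, H3 and H4 form the nucleosome around which DNA is wrapped, and H1 binds the DNA between nucleosomes. The replication-dependent genes are made chiefly in S phase, have no introns in their usual form, and yield mRNAs that end not in a poly(A) tail but in a conserved stem-loop, which is bound by the stem-loop binding protein SLBP. Some of them also give polyadenylated mRNAs through a site beyond the stem-loop, and these forms are known from cells that have left the cell cycle or differentiated. The replication-independent histone variants, such as H3-3A, have ordinary polyadenylated mRNAs. RNA for the libraries was selected on oligo(dT) beads, so the values below are of polyadenylated histone RNA and of whatever tailless RNA came through the selection. They are not a measure of all histone mRNA.

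The stem-loop and the sequence around it are shown for 8 genes, because these are among the genes that rose and because the length beyond the stem-loop is what a polyadenylated form adds. Each line gives 30 bases 5′ to 3′, on the gene's own strand, as DNA letters of GENCODE release 29 transcripts on GRCh38, with the 16 bases of the stem-loop in capitals.
H2AC6 (chr6:26124662-26124691, plus strand): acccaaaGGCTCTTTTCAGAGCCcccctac
H2AC8 (chr6:26217410-26217439, plus strand): aaccaaaGGCTCTTTTCAGAGCCacccacc
H2BC21 (chr1:149886181-149886210, minus strand): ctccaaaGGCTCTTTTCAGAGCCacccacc
H2BC4 (chr6:26123465-26123494, minus strand): ccccaaaGGCTCTTTTAAGAGCCacccaga
H2BC5 (chr6:26158580-26158609, plus strand): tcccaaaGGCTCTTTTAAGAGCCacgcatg
H3C10 (chr6:27810509-27810538, plus strand): acccaaaGGCTCTTTTCAGAGCCacccaca
H4C15 (chr1:149860762-149860791, minus strand): tcccaaaGGCCCTTTTTAGGGCCgaccact
H4C8 (chr6:26285124-26285153, minus strand): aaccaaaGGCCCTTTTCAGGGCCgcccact

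The search was for the consensus of the histone mRNA stem-loop, on the transcribed strand, with the variable bases of the stem and loop left free. Of the 53 genes, 50 were found in GENCODE release 29 by their identifier, H2AC18, H2AC19 and H3C3 being the others, and 24 of them had a transcript with a match. Among all 83129 protein-coding transcripts of that release, 221 had one, which is 0.27%. Many histone transcripts in the release end at or near the coding sequence, so a transcript with no match says only that the annotated sequence does not hold these letters. H2BC4, H2BC5 and H2BC7 shared the same 16 letters, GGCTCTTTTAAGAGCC. H2AC6, H2AC8, H2BC21 and H3C10, from different families, shared another, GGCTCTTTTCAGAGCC. Among annotated transcripts that hold the stem-loop, the longest stretch after it was 1128 bases in H2AC6, 1729 in H2BC21, 769 in H3C10, 1314 in H4C15 and 1655 in H4C8, against 116 in H2BC4, 51 in H2AC8 and 39 in H2BC5. H2BC5 also has a transcript of 789 bases without a match. In 19 of the 53 genes a transcript with the stem-loop ran for more than 100 bases beyond the stem-loop.

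Histone H2A and H2B genes often lie head to head and share the sequence between their starts. Of 10 such neighbouring pairs with fewer than 500 bases between them, the pair of H2BC4 and H2AC6 had 218 bases between its genes and that of H2BC12 and H2AC12 had 250. The promoters of H2AC6 and H2BC12, which hold the bases between the genes of each pair, are shown with that of H2AC18, a gene whose level differed widely between siMCT4 libraries. Each is RefSeq sequence on GRCh38.p14 from 250 bases before to 50 bases after the annotated start, on the gene's strand, with capitals for matches on either strand to CCAAT, to the TATA box letters TATAAA and to the octamer ATTTGCAT.
H2AC6 (chr6:26123922-26124221, plus strand): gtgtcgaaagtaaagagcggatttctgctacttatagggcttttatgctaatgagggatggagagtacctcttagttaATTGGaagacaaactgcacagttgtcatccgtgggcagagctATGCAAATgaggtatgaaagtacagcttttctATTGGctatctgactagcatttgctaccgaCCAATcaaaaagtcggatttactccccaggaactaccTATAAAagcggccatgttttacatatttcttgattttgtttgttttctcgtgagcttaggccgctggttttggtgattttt
H2BC12 (chr6:27146806-27147105, minus strand): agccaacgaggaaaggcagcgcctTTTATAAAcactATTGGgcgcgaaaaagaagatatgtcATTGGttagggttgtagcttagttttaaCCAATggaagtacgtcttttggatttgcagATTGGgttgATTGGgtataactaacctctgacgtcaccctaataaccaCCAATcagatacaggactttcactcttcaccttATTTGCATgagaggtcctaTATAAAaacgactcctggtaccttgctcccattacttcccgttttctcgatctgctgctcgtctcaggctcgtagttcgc
H2AC18 (chr1:149842701-149843000, minus strand): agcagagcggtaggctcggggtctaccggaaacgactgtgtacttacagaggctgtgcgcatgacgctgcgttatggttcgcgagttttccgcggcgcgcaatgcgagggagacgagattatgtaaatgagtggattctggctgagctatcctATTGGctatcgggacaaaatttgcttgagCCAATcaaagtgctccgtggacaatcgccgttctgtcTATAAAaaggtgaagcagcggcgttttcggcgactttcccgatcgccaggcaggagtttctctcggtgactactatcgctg

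Of the 53 genes, 51 had a promoter in the RefSeq table. CCAAT, the core of the site bound by the factor NF-Y, was found in 44 of them, or 86.3%, against 39.7% of all 27305 promoters. TATAAA, the core of the TATA box, was in 35, or 68.6%, against 14% of all. ATTTGCAT, the octamer that OCT1 binds and that is known from H2B promoters, was in 23, or 45.1%, against 2.2% of all. The families differed in these letters. CCAAT was in every H1, H2A, H2B and H3 promoter in the table and in 2 of 9 H4 promoters. The octamer was in 12 of 15 H2B promoters, 10 of 14 H2A promoters, 1 of 9 H3 promoters and no H1 or H4 promoter. The H3 match was at a start of H3C4 whose window is the same sequence as the H2AC7 promoter. The other annotated start of H3C4 held no octamer. H2BC12 held 6 matches to CCAAT and H2AC18 held 2. In H2BC12, matches to TATAAA on the 2 strands overlap each other. These matches are letters in a window and were not tested for use, and the pairs share part of the sequence counted.

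Totals ran from 61880619 to 69181938 counts per library. The label check held, since SLC16A3 had 10.8, 11 and 13.4 counts per 1000000 counts (CPM, scaled with TMM factors) in siMCT4 libraries, against 115, 101 and 108 CPM in control libraries. Its log2 change, siMCT4 over control, was -3.20 (SE 0.102, edgeR quasi-likelihood test, Benjamini-Hochberg adjusted p = 1.12e-06), and the exact two-sided permutation test over 20 assignments gave p = 0.1, the smallest it can give. Library 3 of siMCT4 stood apart from the other two of its group. The more abundant tested genes, those above a floor of mean CPM, held 409 whose transcripts had a GC content of at least 64%. In these, libraries 1 and 2 lay at a median of -0.91 and -1.02 relative to the mean of controls on the log2 scale, and library 3 at -0.19. COL1A2, a fibroblast collagen gene, had 1892 and 1782 counts in libraries 1 and 2 and 0 in siMCT4 library 3 and in every control. The macrophage marker CD68 was at 967 ± 60.6 CPM in siMCT4 and 920 ± 17.1 CPM in controls (SD, n = 3 each). It does not stand for the other macrophage markers, since 6 of the 10 tested were called lower (edgeR), as given below. Results for the histone genes are given without library 3 of siMCT4 where it changes them.

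Histone RNA was more abundant in siMCT4 than in control libraries, and no histone gene passed the test as lower. The 53 genes together summed to 124, 117 and 159 CPM in siMCT4, against 64.9, 73.0 and 74.0 CPM in controls. The groups did not overlap, and the log2 ratio of their means was 0.92, or 0.77 without library 3 of siMCT4. Of the 53 genes, 24 had enough counts to be tested and 29 did not. Of the 24 tested, 13 rose and 11 did not pass the test at an adjusted p of 0.05 (edgeR). The count of genes lower was 0 in edgeR, at an unadjusted p under 0.05, in DESeq2 and in limma alike. Over all 19944 genes tested, 20.6% were called higher and 20.8% lower. The median log2 change was 0.97 over the 24 tested histone genes and -0.01 over all genes tested. In 15 of the 24 every siMCT4 library was above every control library, which held for 27.2% of all genes tested, and in 0 the reverse, which held for 27.8%. A gene could enter the test through one group alone, so these counts describe the genes tested and not all 53. Without library 3 of siMCT4, 12 histone genes passed as higher and 2 as lower, which were H2AC18 and H2AC19. With library 3 alone against the controls, a smaller design, 11 passed as higher, and H1-2 (adjusted p = 0.21), H2AC8 (0.115), H2BC8 (0.199), H3C10 (0.0829) and H4C8 (0.232) did not pass. In bulk RNA, more cells that express a gene and more of its RNA per cell cannot be told apart.

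**Figure D1:**
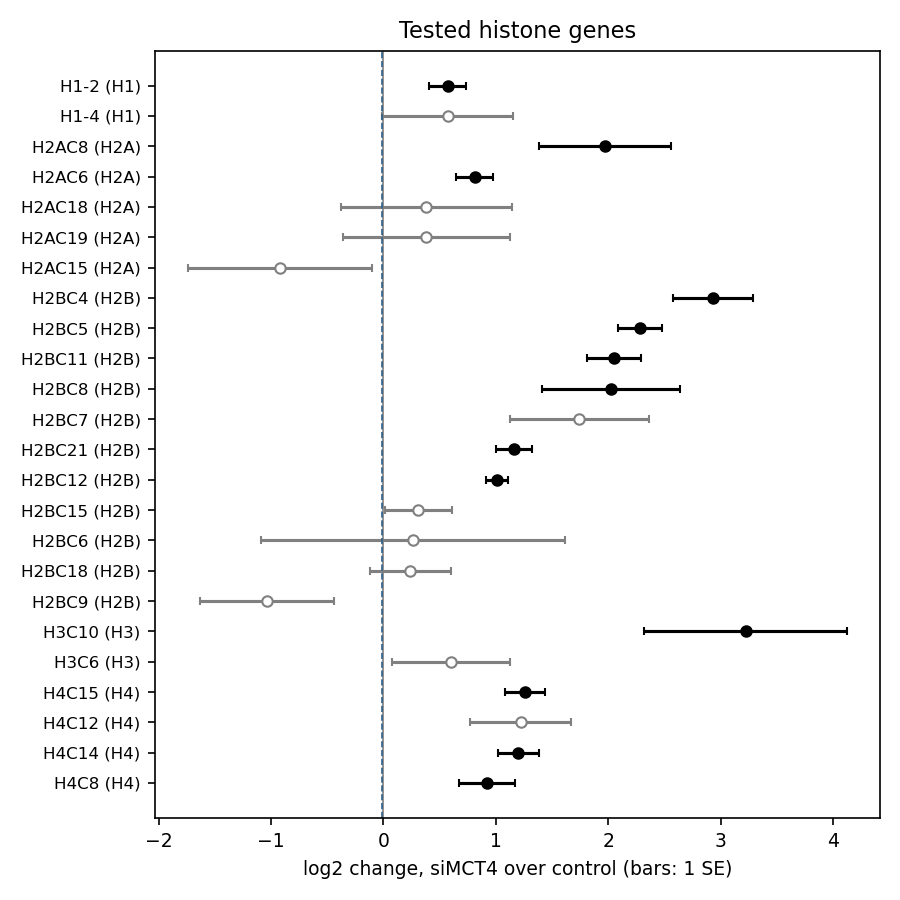
Log2 change, siMCT4 over control, of each of the 24 tested histone genes, grouped by family from top to bottom, with bars of 1 SE. Filled points passed the test at an adjusted p of 0.05 and open points did not; the dashed line marks the median of all genes tested, and the 13 filled points all lie to its right.

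The linker histone gene measured well was H1-2, which rose. It had 15.2, 14 and 12.3 CPM in siMCT4 libraries, against 7.5, 9.30 and 11.2 CPM in control libraries. All siMCT4 libraries were above all controls, with a small gap between the lowest siMCT4 library and the highest control. The log2 change was 0.57 (SE 0.161, edgeR adjusted p = 0.0255). This call rested on several libraries, since the adjusted p was 0.056 without control library 1, 0.0684 without control library 2, 0.0763 without siMCT4 library 1 and 0.0631 without siMCT4 library 2. H1-4 was at 0.299 ± 0.15 CPM in siMCT4 and 0.2 ± 0.0774 CPM in controls (SD, n = 3 each), with overlapping groups and an adjusted p of 0.478 (edgeR). H1-3 and H1-6 were below the filter. H1-6, known as a testis linker histone, had 8, 11 and 23 counts in siMCT4 and 2, 0 and 0 counts in controls. Other fits took it in, and H1-6 passed as higher in DESeq2 (adjusted p = 0.022) and in limma (adjusted p from 0.00969 to 0.0224), but not in edgeR with no low-count filter (adjusted p = 0.059).

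Among the H2A genes 5 were tested, of which H2AC6 and H2AC8 rose. H2AC6, known for a polyadenylated mRNA, had 18.6, 16.9 and 25.9 CPM in siMCT4 libraries, against 10.6, 12 and 12.5 CPM in control libraries. The groups did not overlap, and library 3 was the highest of all. Its log2 change was 0.81 (SE 0.168, edgeR adjusted p = 0.00707). H2AC8 was a low gene, with 43, 30 and 46 counts in siMCT4 against 19, 4 and 6 counts in controls, and a log2 change of 1.97 (SE 0.591, edgeR adjusted p = 0.032). The H2AC8 call was lost without control library 2 (adjusted p = 0.0875) or 3 (adjusted p = 0.109) and without siMCT4 library 1 (adjusted p = 0.0901) or 3 (adjusted p = 0.0541), and with no low-count filter (adjusted p = 0.0626). H2AC15 was at 0.105 ± 0.0909 CPM in siMCT4 and 0.201 ± 0.0823 CPM in controls (SD, n = 3 each), with an adjusted p of 0.412 (edgeR).

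H2AC18 and H2AC19, neighbouring copies on chromosome 1 with almost the same counts, went in opposite directions in different siMCT4 libraries. H2AC18 had 171, 171 and 1405 counts in siMCT4 libraries, or 2.68, 2.46 and 19.8 CPM, against 388, 397 and 452 counts in control libraries, or 5.79, 6.21 and 7.16 CPM. Libraries 1 and 2 of siMCT4 lay below every control and library 3 above every control. H2AC19 had 2.91, 2.49 and 19.6 CPM in siMCT4 against 5.76, 6.26 and 7.28 CPM in controls, the same pattern. With all libraries, the log2 change was 0.38 for H2AC18 (SE 0.76, edgeR adjusted p = 0.725) and 0.38 for H2AC19 (SE 0.741, edgeR adjusted p = 0.722). Without library 3 of siMCT4 both passed as lower, at log2 changes of -1.29 (adjusted p = 0.000515) and -1.23 (adjusted p = 0.000854). Library 3 alone against the controls passed as higher for both, at log2 changes of 1.65 (adjusted p = 0.000373) and 1.63 (adjusted p = 0.000457), with the lone library assumed to vary as the controls do. Reads from the copies cannot be assigned with confidence to one or the other, and their almost equal counts are not independent of each other.

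A difference of library 3 from libraries 1 and 2 was not seen in the same measure in the other abundant histone genes. The log2 ratio to the control mean in siMCT4 libraries 1, 2 and 3 was -1.25, -1.38 and 1.63 in H2AC18. In H2AC6 it was 0.67, 0.53 and 1.15, and in H2BC21 1.05, 0.93 and 1.46. In H2BC12 it was 1.18, 1.02 and 0.83, with library 3 the lowest of its group. Beyond the 53 genes, the H2A variant gene H2AX had ratios of -1.49, -1.86 and -0.09 and the H2A variant gene H2AJ -1.18, -1.62 and 0.12, so library 3 was the highest of the siMCT4 libraries there as well. The part of GC content in the H2AC18 and H2AC19 values was not tested.

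**Figure D2:**
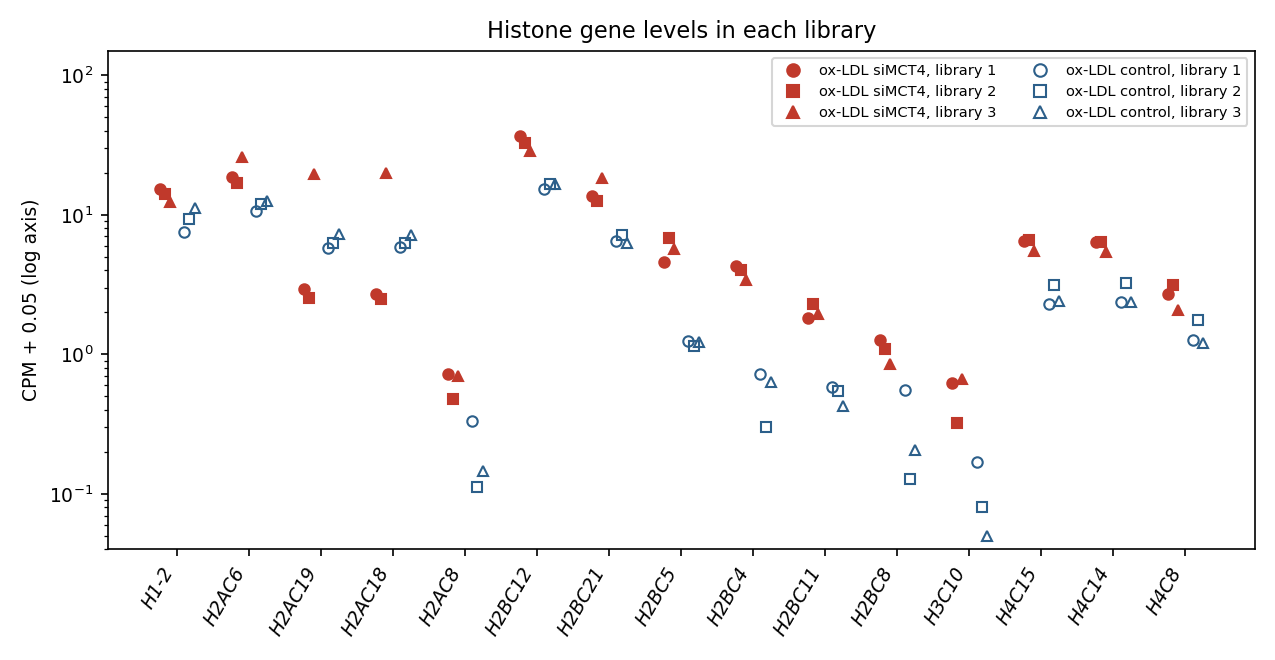
CPM, with 0.05 added, on a log axis by library, for the 13 histone genes called higher and for H2AC18 and H2AC19. Filled symbols are siMCT4 and open symbols are control. In H2BC12 every siMCT4 symbol (28.6 to 36.5 CPM) is above every control symbol (15.4 to 16.5 CPM), while in H2AC18 and H2AC19 the siMCT4 library 3 triangle alone is above the controls.

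The H2B genes held the most calls and, except in siMCT4 library 3, the most RNA. Of 15 genes 11 were tested, 6 rose and 5 did not pass the test, with a median log2 change of 1.16. H2BC12 was the most abundant histone gene per length in both groups, at 63.6 ± 7.82 FPKM in siMCT4 and 29.2 ± 1.24 FPKM in controls (SD, n = 3 each; FPKM are values per length of gene and per depth of library, as deposited). It had 36.5, 32.6 and 28.6 CPM in siMCT4 libraries, against 15.4, 16.5 and 16.5 CPM in control libraries. The groups lay far apart beside their spread, and the log2 change was 1.01 (SE 0.0997, edgeR adjusted p = 0.000192). H2BC21, also known for a polyadenylated mRNA, had 13.7, 12.6 and 18.2 CPM in siMCT4 libraries, against 6.49, 7.18 and 6.21 CPM in control libraries. Its log2 change was 1.16 (SE 0.158, edgeR adjusted p = 0.000934), and every siMCT4 library was above every control.

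The next H2B genes were low in controls and showed larger changes. H2BC5 had 4.51, 6.75 and 5.63 CPM in siMCT4 libraries, against 1.19, 1.10 and 1.17 CPM in control libraries. Controls were nearly level with each other, and the log2 change was 2.28 (SE 0.197, edgeR adjusted p = 0.000103). H2BC5 shares bases with LARP1P1 on the same strand, so reads could have been split or shared between them. H2BC4, the head-to-head neighbour of H2AC6, had 270, 275 and 237 counts in siMCT4 libraries, or 4.23, 3.96 and 3.34 CPM. In controls it had 45, 16 and 37 counts, or 0.671, 0.250 and 0.586 CPM. The log2 change of H2BC4 was 2.93 (SE 0.352, edgeR adjusted p = 0.000516), and no siMCT4 library came near a control. H2BC11 had 1.77, 2.23 and 1.9 CPM in siMCT4 libraries, against 0.537, 0.501 and 0.380 CPM in control libraries, with a log2 change of 2.05 (SE 0.238, edgeR adjusted p = 0.000428).

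H2BC8, the neighbour of H2AC8, had 78, 72 and 57 counts in siMCT4 libraries, against 34, 5 and 10 counts in control libraries. Its siMCT4 libraries were above every control, and control library 1 was the highest of the controls. The log2 change was 2.02 (SE 0.614, edgeR adjusted p = 0.0332). That call was lost without control library 2 (adjusted p = 0.0718) or 3 (adjusted p = 0.118) and without siMCT4 library 1 (adjusted p = 0.092) or 2 (adjusted p = 0.0754), and with no low-count filter (adjusted p = 0.0684). Of the 5 H2B genes that did not pass, log2 changes were 1.74 in H2BC7 (edgeR adjusted p = 0.0575), 0.31 in H2BC15, 0.26 in H2BC6, 0.24 in H2BC18 and -1.04 in H2BC9 (edgeR adjusted p = 0.208). H2BC18 lies across from FCGR1A on the opposite strand, a macrophage receptor gene that fell by 1.66 on the log2 scale (edgeR adjusted p = 1.24e-06), and the strand setting of the counting is not given in the sources used here.

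Of the 10 head-to-head pairs of H2A and H2B genes, both genes rose in 2, which were H2BC4 with H2AC6 and H2BC8 with H2AC8. In H2BC4 with H2AC6 the log2 changes were 2.93 and 0.81, and in H2BC8 with H2AC8 they were 2.02 and 1.97. In 3 pairs the H2B gene rose and the H2A gene was too low to test, which were H2BC11 with H2AC11, H2BC12 with H2AC12 and H2BC21 with H2AC20. H2AC12, across 250 bases from the most abundant histone gene, had 8, 7 and 12 counts in siMCT4 and 4, 0 and 2 counts in controls. In the other 5 pairs neither gene passed the test or could be tested.

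H3 genes were scarce. Of 10 only H3C10 and H3C6 were tested, and the whole family summed to 1.13, 0.662 and 1.71 CPM in siMCT4 against 0.582, 0.767 and 0.633 CPM in controls, groups that overlapped. H3C10 had 37, 19 and 44 counts in siMCT4 libraries, against 8, 2 and 0 counts in control libraries. It rose with a log2 change of 3.22 (SE 0.9, edgeR adjusted p = 0.0243), a fitted value that depends on how few control counts there are. The H3C10 call was lost without control library 2 (adjusted p = 0.093) or siMCT4 library 1 (adjusted p = 0.0762), and with no low-count filter (adjusted p = 0.0573). H3C6 had a log2 change of 0.60 (edgeR adjusted p = 0.404). H3C14 and H3C15, copies whose annotated transcripts are identical over 1656 bases, were the highest H3 genes by mean FPKM over all libraries and were below the filter, with 4, 3 and 21 counts for H3C14 in siMCT4 against 7, 11 and 4 in controls. Their siMCT4 library 3 was the highest, as in H2AC18, which lies close to H3C14 on chromosome 1.

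Of the H4 genes 4 were tested and 3 rose, with a median log2 change of 1.21. H4C15 had 6.50, 6.52 and 5.50 CPM in siMCT4 libraries, against 2.25, 3.10 and 2.36 CPM in control libraries. H4C14 had 6.36, 6.34 and 5.34 CPM in siMCT4 libraries, against 2.31, 3.21 and 2.34 CPM in control libraries. Both showed every siMCT4 library above every control, with log2 changes of 1.26 for H4C15 (SE 0.179, edgeR adjusted p = 0.00116) and 1.20 for H4C14 (SE 0.185, edgeR adjusted p = 0.00175). Annotated transcripts of H4C14 and H4C15 are identical over 610 bases, so their values are not independent and the split between them is uncertain. H4C8 had 2.66, 3.08 and 2.02 CPM in siMCT4 libraries, against 1.21, 1.72 and 1.16 CPM in control libraries, with a log2 change of 0.92 (SE 0.249, edgeR adjusted p = 0.021). The H4C8 call was lost without control library 1 (adjusted p = 0.0748) or 3 (adjusted p = 0.0774) and without siMCT4 library 1 (adjusted p = 0.0566) or 2 (adjusted p = 0.0658). H4C12 had a log2 change of 1.22 and did not pass (edgeR adjusted p = 0.0647), although every siMCT4 library was above every control.

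Set side by side, the families differed in level and in how even the difference was. The summed level of H2B was 63.4 ± 1.44 CPM in siMCT4 and 28 ± 0.853 CPM in controls (SD, n = 3 each), a log2 ratio of 1.18 that was also 1.18 without library 3 of siMCT4. H4 summed to 15.5 ± 1.6 CPM in siMCT4 and 6.96 ± 1.37 CPM in controls, a log2 ratio of 1.16, and H1 to 14.4 ± 1.51 CPM in siMCT4 and 9.6 ± 1.75 CPM in controls, a log2 ratio of 0.59. H2A summed to 25.7, 22.6 and 67.9 CPM in siMCT4 libraries, against 23.2, 25.2 and 27.8 CPM in control libraries, and its log2 ratio of 0.61 became -0.07 without library 3 of siMCT4. With H2AC18 and H2AC19 left out, H2A summed to 20.1, 17.7 and 28.4 CPM in siMCT4 against 11.6, 12.8 and 13.4 CPM in controls, groups that did not overlap. The log2 ratio was then 0.81, or 0.58 without library 3 of siMCT4. H3 had a log2 ratio of 0.82, or 0.44 without that library. In summed FPKM the H3 ratio was 0.56, or -0.09 without siMCT4 library 3. That of H2A was 0.62, or -0.42 without it. Differences between the families were not tested.

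**Figure D3:**
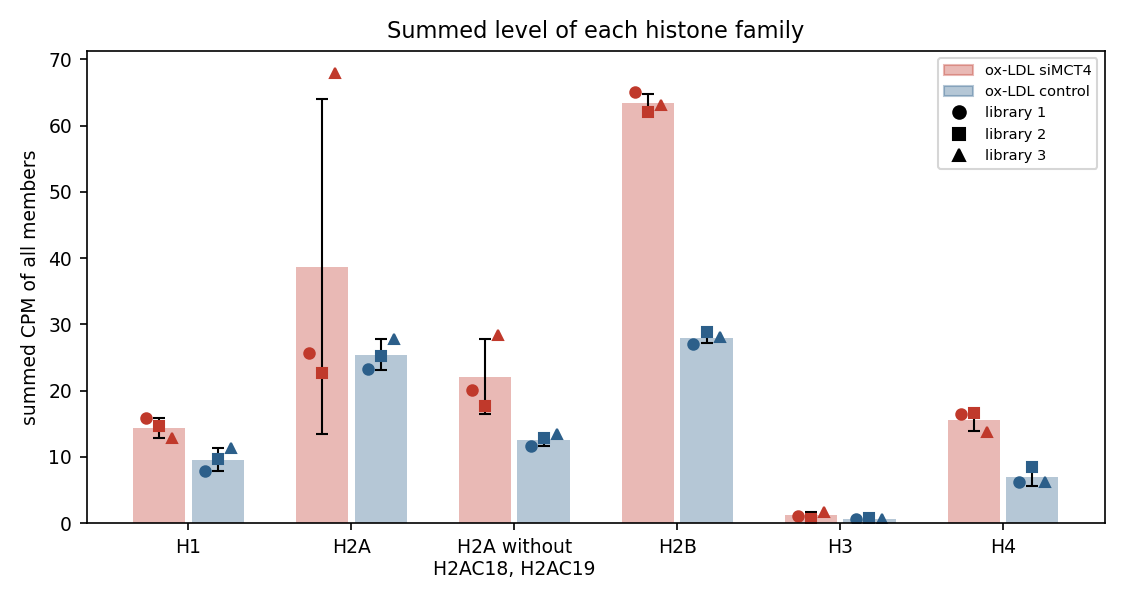
Summed CPM of all genes of each histone family, members below the filter included, by library (symbols), with bars for the mean of 3 libraries and error bars of 1 SD; siMCT4 is left of control in each pair. H2B, at 62.1 to 65.0 CPM in siMCT4 and 27.1 to 28.8 CPM in controls, is the highest family in every library but siMCT4 library 3, where H2A is at 67.9 CPM.

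Per length, H2BC12 and H1-2 led in both groups by their means. In siMCT4, H2BC12 was followed by H1-2 at 18.3 ± 1.91 FPKM, H2AC19 at 15.1 ± 17.6 FPKM, H2AC18 at 15.0 ± 18.0 FPKM and H2AC6 at 11.8 ± 2.76 FPKM (SD, n = 3 each). In controls H1-2 stood at 11.4 ± 2.19 FPKM, H2AC19 at 10.8 ± 1.23 FPKM, H2AC18 at 10.7 ± 1.1 FPKM and H2AC6 at 6.27 ± 0.538 FPKM. The places from H1-2 to H2AC18 lay within each other's spread in both groups. In siMCT4 the places of H2AC18 and H2AC19 rest on library 3, since H2AC18 was at 4.86, 4.44 and 35.8 FPKM there, below the 10.8 and 9.76 FPKM of H2AC6 in libraries 1 and 2. H2BC21 at 6.44 ± 1.27 FPKM and H2BC5 at 6.29 ± 1.25 FPKM were within each other's spread in siMCT4, whereas in controls H2BC21 was at 2.67 ± 0.233 FPKM and H2BC5 at 1.18 ± 0.048 FPKM. H2BC4 was at 5.11 ± 0.609 FPKM in siMCT4 and 0.596 ± 0.271 FPKM in controls. H4C15 was at 3.16 ± 0.302 FPKM in siMCT4 and 1.22 ± 0.233 FPKM in controls.

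The 29 genes that were not tested reached at most 41 counts in any library. They summed to 139, 80 and 224 counts in siMCT4 libraries, against 76, 94 and 78 counts in control libraries, so the groups overlapped. By mean CPM 21 of them were higher in siMCT4 and 8 were lower, with no test. In controls 7 of them had no count in any library, and in siMCT4 3 had none. H4C4 had 6, 4 and 7 counts in siMCT4 and 0 in every control. H2AC16 ran the other way, with 0, 0 and 2 counts in siMCT4 and 15, 14 and 0 in controls. Both were below the filter; fitted without it, H4C4 had an adjusted p of 0.0608 in edgeR and 0.0801 in DESeq2, and H2AC16 one of 0.225 in edgeR and 0.141 in DESeq2.

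Because the RNA was selected for poly(A), the genes were also split by what is known of their mRNA. The 6 genes known for a polyadenylated form, H1-2, H2AC6, H2BC4, H2BC5, H2BC12 and H2BC21, all rose, where 20.6% of all genes tested did. Their log2 changes ran from 0.57 to 2.93, with a median of 1.09. They summed to 92.8, 86.8 and 94.1 CPM in siMCT4 libraries, against 41.8, 46.4 and 48.2 CPM in control libraries, a log2 ratio of 1.01. They made up 74.8%, 74.5% and 59.1% of all histone counts in siMCT4 and 64.5%, 63.5% and 65.0% in controls. H2AC18 and H2AC19 together made up 4.51%, 4.24% and 24.8% in siMCT4 and 17.8%, 17.1% and 19.5% in controls. The 47 genes outside this group summed to 31.2, 29.7 and 65.2 CPM in siMCT4 libraries, against 23.1, 26.7 and 25.9 CPM in control libraries, a log2 ratio of 0.74, or 0.27 without library 3 of siMCT4. In summed FPKM the ratio was 0.72, or -0.07 without that library. Of these 47, 18 were tested and 7 rose, with a median log2 change of 0.76. With H2AC18 and H2AC19 left out, a choice made after their values were seen, the other 45 genes summed to 25.6, 24.8 and 25.7 CPM in siMCT4 libraries, against 11.5, 14.2 and 11.4 CPM in control libraries, a log2 ratio of 1.04. The difference between these 6 genes and the others was not tested. Genes outside the 6, such as H3C10, H4C8 and H4C15, also have annotated transcripts that run far beyond the stem-loop. The split therefore does not separate polyadenylated from tailless RNA. This split of the genes follows general knowledge of histone mRNAs and was not measured in these cells. The 6 genes were listed with earlier results of these data known, so the rise of all 6 is a description and no test.

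**Figure D4:**
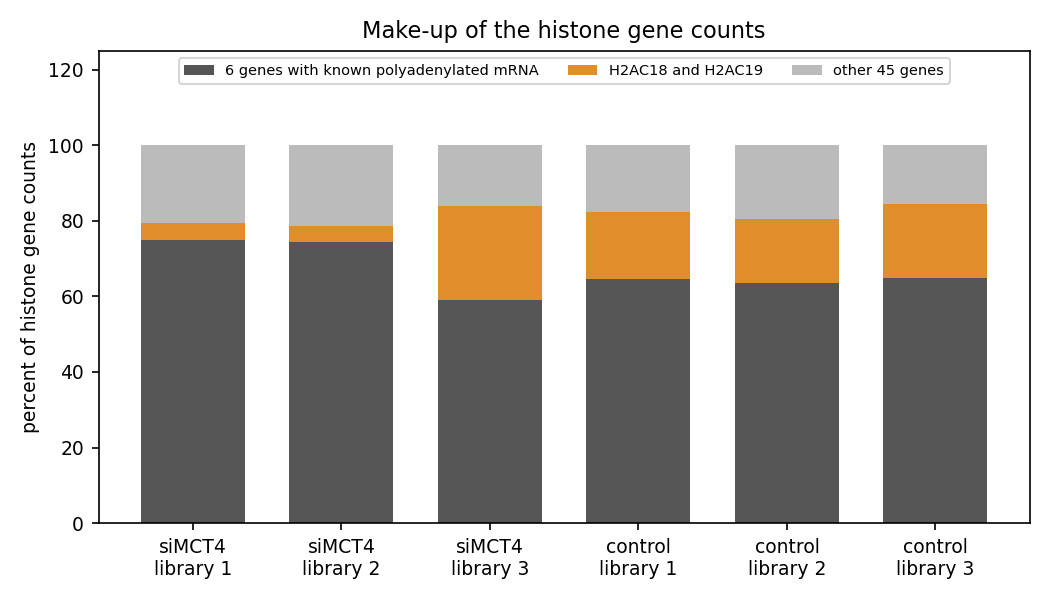
Percent of all histone gene counts in each library that fell on the 6 genes known for a polyadenylated mRNA, on H2AC18 and H2AC19, and on the other 45 genes, with siMCT4 libraries on the left. The share of H2AC18 and H2AC19 is 4.51% and 4.24% in siMCT4 libraries 1 and 2, against 24.8% in siMCT4 library 3 and 17.1% to 19.5% in controls.

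The genes were also split by their annotated 3′ ends, and this split did not match the one above. Of the genes known for a polyadenylated form, H1-2, H2BC5 and H2BC12 had no annotated transcript running that far beyond a stem-loop match. Of the 19 genes with a transcript running more than 100 bases past the stem-loop, 14 were tested and 8 rose, with a median log2 change of 1.04. Of the other 34, 10 were tested and 5 rose, with a median of 0.79. An AATAAA, the letters of the usual poly(A) signal, lay in the last 50 bases of a transcript of 18 genes, of which 13 were tested and 8 rose, and of the 35 others 11 were tested and 5 rose. Genes with a longer annotated end more often had enough counts to be tested. The filter is on counts not corrected for length, so this was not separated from gene length itself. Among genes tested the shares that rose were not compared by a test. Over all genes tested, 20.6% were called higher. Both the other 34 and the 35 others include H2AC18, H2AC19 and H3C3, which were not found in GENCODE. The annotated ends of these genes are therefore unknown, not short. Other genes of both sets, such as H2BC12 with 381 annotated bases, have transcripts that end at or near the coding sequence. Their true ends are not known from the annotation either. H2AC18 and H2AC19 were tested and did not pass, so they lowered the shares that rose in both sets. Neither split therefore shows whether genes with such ends rose more often.

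Some RNAs that have no poly(A) tail were also counted in the libraries. Their level before the selection was not measured, so the share that came through is not known. Of 12 such RNAs 10 had a row and 3 had enough counts to test. None of the 3 passed (edgeR; 0 at an unadjusted p under 0.05, and 0 in DESeq2 and in limma). RN7SL2, an RNA of the signal recognition particle, had 2.07, 10.7 and 12 CPM in siMCT4 libraries and 2.25, 7.54 and 26.6 CPM in control libraries, so it varied more within groups than between them (log2 change -0.55, edgeR adjusted p = 0.663; 0.76 without control library 3). The 10 RNAs summed to 10.5, 17.9 and 19.3 CPM in siMCT4 and 9.1, 16 and 43.4 CPM in controls. The part of unequal poly(A) selection in the histone values was not tested.

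Genes that handle histone mRNA did not move together. Of 14 tested, 4 rose, 2 fell and 8 did not pass, where 20.6% of all genes tested rose and 20.8% fell. Calls both ways were thus also the picture over all genes. The median log2 change of the 14 genes was -0.01. The count that rose was 1 without control library 2 or siMCT4 library 1, and 2 without control library 1 or 3. SLBP, which binds the stem-loop, was at 41.5 ± 2.0 CPM in siMCT4 and 40.1 ± 1.74 CPM in controls (SD, n = 3 each), with an adjusted p of 0.585 (edgeR). NPAT, the coactivator of histone gene transcription, was at 23 ± 4.52 CPM in siMCT4 and 16.9 ± 1.39 CPM in controls (edgeR adjusted p = 0.0422). The NPAT call was lost without any one of the 3 control libraries (adjusted p = 0.0662, 0.142 and 0.126) or without siMCT4 library 1 (adjusted p = 0.0596), and with no low-count filter (adjusted p = 0.0822). CPSF3, the endonuclease that cuts histone pre-mRNA, fell by 0.42 on the log2 scale (edgeR adjusted p = 0.000281), and TUT7, a terminal uridylyltransferase, fell by 0.25 on the log2 scale (edgeR adjusted p = 0.00145; 0.338 with limma on log2(TPM + 1)). SYMPK, a scaffold of the cleavage complex, rose with a log2 change of 0.25 (edgeR adjusted p = 0.0062). The other genes called higher were CSTF2, at a log2 change of 0.35, and CASP8AP2, which takes part in histone mRNA 3′ end formation, at 0.18 (edgeR adjusted p = 0.0448). The CSTF2 call (edgeR adjusted p = 0.0207) was lost without control library 1 (0.0635) or 2 (0.0687) and without siMCT4 library 1 (0.062).

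Replication-independent histone variants went both ways. Of 12 tested, 2 rose, 4 fell and 6 did not pass, where 20.6% of all genes tested rose and 20.8% fell. MACROH2A2 was among those that rose (log2 change 0.78). MACROH2A1 fell to 434 ± 18.0 CPM in siMCT4, against 650 ± 7.33 CPM in controls (log2 change -0.58, edgeR adjusted p = 4.99e-05). CENPA, the centromeric H3, fell to 0.574 ± 0.0394 CPM in siMCT4, against 2.62 ± 0.661 CPM in controls (log2 change -2.19, edgeR adjusted p = 0.000448). H3-3A, which encodes the replacement histone H3.3, had a log2 change of -0.41 (edgeR adjusted p = 0.0009), and H2AZ2 one of -0.51. Without library 3 of siMCT4, 7 variants passed as lower.

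S-phase genes, which histone genes usually accompany, mostly fell. Of 15 tested, 8 fell, 3 rose and 4 did not pass, where 20.8% of all genes tested fell and 20.6% rose. The 15 genes had a median log2 change of -0.80. They summed to 107, 101 and 87.8 CPM in siMCT4 libraries, against 150, 156 and 153 CPM in control libraries, groups that did not overlap. CCNA2, the cyclin of S and G2 phase, was at 3.47 ± 0.363 CPM in siMCT4 and 19.4 ± 1.31 CPM in controls (log2 change -2.49, edgeR adjusted p = 7.01e-06). CDT1, a replication licensing factor, had a log2 change of -3.12 (edgeR adjusted p = 9.25e-05), TYMS, thymidylate synthase, one of -2.95 (edgeR adjusted p = 0.000263), and the transcription factor E2F1 one of -1.48 (edgeR adjusted p = 0.000377). PCNA, the polymerase clamp, was at 11.5 ± 2.87 CPM in siMCT4 and 10.3 ± 0.474 CPM in controls and did not pass (edgeR adjusted p = 0.547). The 3 that rose were CCNE1, CCNE2 and UHRF1, of which 1 was called without control library 2. The histone genes and most of the S-phase list thus differed in direction, and their difference in direction was not tested as such.

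Histone chaperones, which carry new histones to DNA, were divided. Of 20 tested, 7 rose, 7 fell and 6 did not pass, where 20.6% of all genes tested rose and 20.8% fell. The median log2 change of the 20 genes was 0.09, and 4 of them fell without control library 1 or siMCT4 library 2. NASP, a chaperone of H3 and H4, rose with a log2 change of 0.62 (edgeR adjusted p = 0.000473), as did UBN1 (0.53) and CABIN1 (0.53), which belong to the HIRA complex that deposits histone H3.3, and DAXX (0.45). NAP1L1, a chaperone of H2A and H2B, fell by 0.62 on the log2 scale (edgeR adjusted p = 8.46e-05). Macrophage markers moved with the groups too. Of 10 tested, 6 fell and 4 did not pass in edgeR, where 20.8% of all genes tested fell. The count that rose was 0 in edgeR, in DESeq2 and in limma. DESeq2 called 6 of these markers and limma 3 as lower. Their summed level was 3340, 3330 and 3210 CPM in siMCT4 against 4250, 4280 and 4210 CPM in controls. CSF1R had a log2 change of -0.87 (edgeR adjusted p = 1.58e-05) and CD14 one of -1.99 (edgeR adjusted p = 0.000343). ITGAM had one of -0.17 (edgeR adjusted p = 0.0117), a call lost without control library 1 or 2 and without siMCT4 library 1 or 2 (adjusted p from 0.0531 to 0.0911), with library totals alone (adjusted p = 0.143) and with limma on log2(FPKM + 1) (adjusted p = 0.366). Of 8 markers of other cell types, 7 had a row and 4 were tested. PECAM1 fell, at 341 ± 5.5 CPM in siMCT4 and 536 ± 7.04 CPM in controls, ACTA2 rose, at 0.648 ± 0.275 CPM in siMCT4 and 0.0211 ± 0.0366 CPM in controls, and EPCAM and KRT19 were at 0 in every control. The 7 summed to 345 to 376 CPM in siMCT4 and 535 to 548 CPM in controls. The part of cell make-up in the histone values was not tested.

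**Figure D5:**
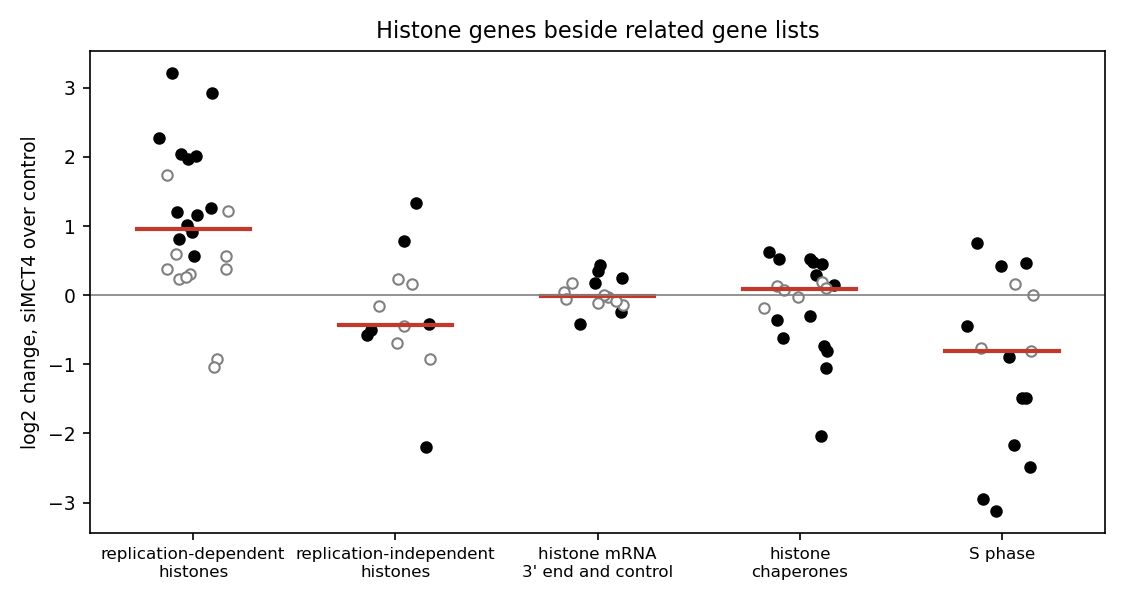
Log2 change, siMCT4 over control, of the tested genes of each list, as points, filled where the gene passed the test at an adjusted p of 0.05 and open where it did not; red lines are medians. The 24 histone genes have a median of 0.97, against -0.80 for the 15 S-phase genes, -0.43 for the 12 variants, -0.01 for the 14 genes of histone mRNA handling and 0.09 for the 20 chaperones.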

How the data were processed

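Per the labels' protocols, the 6 libraries were made from poly(A)-selected RNA with strand marking and read as paired ends. Trimming with cutadapt 1.9 and alignment with HISAT2 2.2.1 to GRCh38 are named in the submitters' processing notes; how reads were counted, and with which strand setting, is not given in the sources. Per the file headers, the authors deposited raw counts and FPKM for each gene and library, in 12 value columns, of which 0 went unused. Among counts of 2 to 41, 58.7% to 60.9% were even, so a fragment may have been counted for each of its mates.

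edgeR 4.0.16 (R 4.3.3) fitted the counts as deposited for all genes with a quasi-likelihood test, two-sided, with TMM scaling and group as the only factor. Genes were filtered with filterByExpr (minimum count 10, minimum total 15), and Benjamini-Hochberg adjustment ran over the 19944 genes left. The common biological coefficient of variation was 0.219. SE was taken as log2 change over root F. CPM carry TMM scaling and an SD over 3 libraries; FPKM are used for levels between genes. Summed levels are descriptions with no test. Alternatives were DESeq2 1.42.0, limma 3.58.1 on log2(FPKM + 1), log2(FPKM + 0.1) and log2(TPM + 1), other scalings and filters, a replicate block, halved counts, summed symbols and each library left out. edgeR with and without the block, DESeq2 and limma were tested on simulated data. Summing near-identical copies and setting library 3 of siMCT4 alone against the controls were chosen after seeing the data.

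The histone genes and the gene lists were chosen with earlier results of these data known. Named genes were SLC16A3, in each family the 2 members of highest mean FPKM and up to 6 called members by smallest adjusted p, the 6 genes known for a polyadenylated mRNA, of each other list up to 4 called genes by smallest adjusted p and the gene of highest mean FPKM, and SLBP and NPAT. One gene that the rule takes is not reported here. Every other gene given with a value, such as H1-6, H2AC16, H4C4, H2AX, H2AJ, MACROH2A2, H2AZ2, CASP8AP2, CCNE1, COL1A2, EPCAM and KRT19, was named after its values were seen. Promoters came from RefSeq and transcripts from GENCODE release 29.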

Additional observations from a re-analysis of the deposited data

How the results depend on the processing

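Across 20 alternative settings the number of histone genes called higher ran from 9 to 18, against 13 as reported, and 8 of the 13 calls held in every setting in which the gene was fitted; H1-2, H2AC8, H2BC8, H3C10 and H4C8 lost theirs in some. Leaving out 1 library gave 9 to 12 called higher and 0 to 2 called lower, where the 2 were H2AC18 and H2AC19 without siMCT4 library 3 and 1 was H2AC16 without control library 3. DESeq2 called 14 higher, among them H1-6, and limma 17 or 18, and with limma these included H1-6, H2AC12, H2BC7 and H4C12. The replicate numbers did not pair the libraries (correlations of deviations -0.096, 0.00136 and -0.0835), and with a replicate block 11 histone genes were called higher and 0 lower, the calls lost being H1-2 (adjusted p = 0.0689) and H3C10 (adjusted p = 0.0516).

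With a replicate block 1 gene of histone mRNA handling was called higher, against 4 as reported, and the count was 2 with no low-count filter, 7 with limma on log2(TPM + 1) and 1 to 4 when a library was left out. With log2(TPM + 1), on which the median of all genes tested moved to 0.137, 1 such gene and 3 chaperones were called lower, against 2 and 7 as reported. When a library was left out, 4 to 6 chaperones were called lower, 1 S-phase gene at the least was called higher (also 1 with siMCT4 library 3 alone) and 3 to 7 variants were called lower. The H2B log2 ratio, 1.18 as reported, was 1.26 with library totals alone, 1.27 for summed FPKM and 1.37 for summed TPM. The H3 ratio, 0.82 as reported, was 0.56 for summed FPKM, and -0.09 when siMCT4 library 3 was also left out.

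Directions turned for genes that had not passed, and for ITGAM. H2AC18 was at -0.15 and -0.21 with limma at pseudocounts of 1 and 0.1, -0.11 with log2(TPM + 1), -0.35 with the replicate block and -1.29 without siMCT4 library 3, up to 0.84 with other libraries left out. H2AC19 was at -0.12, -0.18, -0.08, -0.32 and -1.23 under the same settings, up to 0.83. With siMCT4 library 3 alone H1-4 was at -0.48, PCNA at -0.30, CD68 at -0.02 and RN7SL2 at 0.01; RN7SL2 ran from -1.02 to 0.76 when a library was left out, and ITGAM was at 0.03 with log2(TPM + 1). The cause was not tested. Summing genes by encoded protein was not run, as no protein table was used here. Counts of at most 41 in any library limit what can be said of the 29 untested histone genes.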
